A study of Oryza sativa with 14 samples.

Results

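In rice leaves, 30 loci had almost no RNA in untreated wild-type (WT) plants and a high mean level after a short heat treatment. At LOC_Os06g09688 that mean rests on replicate 1 of heat-treated WT alone. Of the 30 loci, 29 rose with heat in plants of the htg3 lines as well. The 30 were picked from 55986 loci on WT values: a mean under 1 CPM in the untreated WT libraries and of at least 30 CPM in the heat-treated ones, where CPM are counts per 1000000 counts of the library. Another 15 loci, most of them in the lists of heat shock factors and chaperones used here, were removed by ID, and 9 of the 15 also met both thresholds. The 8 htg3 libraries took no part in the choice, so they are where the genes can be tested.

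Plants of cultivar Zhonghua 11 (ZH11) and of 2 transgenic lines, htg3_cr12 and htg3_cr2 (cr12 and cr2 below), were grown in pots to the 4-leaf stage. Heat treatment meant 0.5 h at 42 °C, untreated plants stayed at normal conditions, and total leaf RNA was sequenced. The 6 groups are untreated WT (n = 3 libraries), untreated cr12 (n = 2), untreated cr2 (n = 2), heat-treated WT (n = 3), heat-treated cr12 (n = 2) and heat-treated cr2 (n = 2). Each genotype is represented by a single line, and the labels give neither the edit that it carries nor the locus of HTG3, so the targeted gene was not checked here. Nothing in the labels says that replicates are separate plants, so the scatter between libraries may be technical. A p-value here sets a difference between groups against that scatter, taken over all 6 groups, WT included.

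Plants answer heat within minutes. Heat shock factors, transcription factors kept inactive in unstressed cells, are released and bind short repeated elements in the promoters of their target genes. Those targets include the chaperones that keep proteins folded, and many of them are close to silent without heat, so the RNA of such a gene can go from almost nothing to abundant in a single treatment. The table of counts names loci by their MSU rice locus IDs and pairs them with no symbol or product, and none of the 30 could be matched in the gene table used here (0 of 30), so the loci are described by their values and position and not by function.

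The libraries hold 92.0 M to 99.4 M counts (M for 1000000), or about 23.0 M to 24.9 M fragments, because 1 fragment was worth about 4 counts. A level of 1 CPM therefore stands for 23 to 25 fragments, and levels far under it rest on a handful of fragments. The 4 leaf loci checked, for Rubisco activase and the Rubisco small subunit, were at 182 CPM or more in every library. Replicate 2 of untreated cr12 stands apart in the genes studied here: the 30 loci sum to 27 CPM there against 16 CPM in replicate 1, and the 9 removed loci to 18 against 1 CPM. Replicate 2 of untreated cr2 was low instead, with a sum of 9 CPM over the 30 loci against 18 CPM in replicate 1. In leaf RNA as a whole, fewer cells with an active gene and less RNA per cell cannot be told apart.

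**Figure D1:**
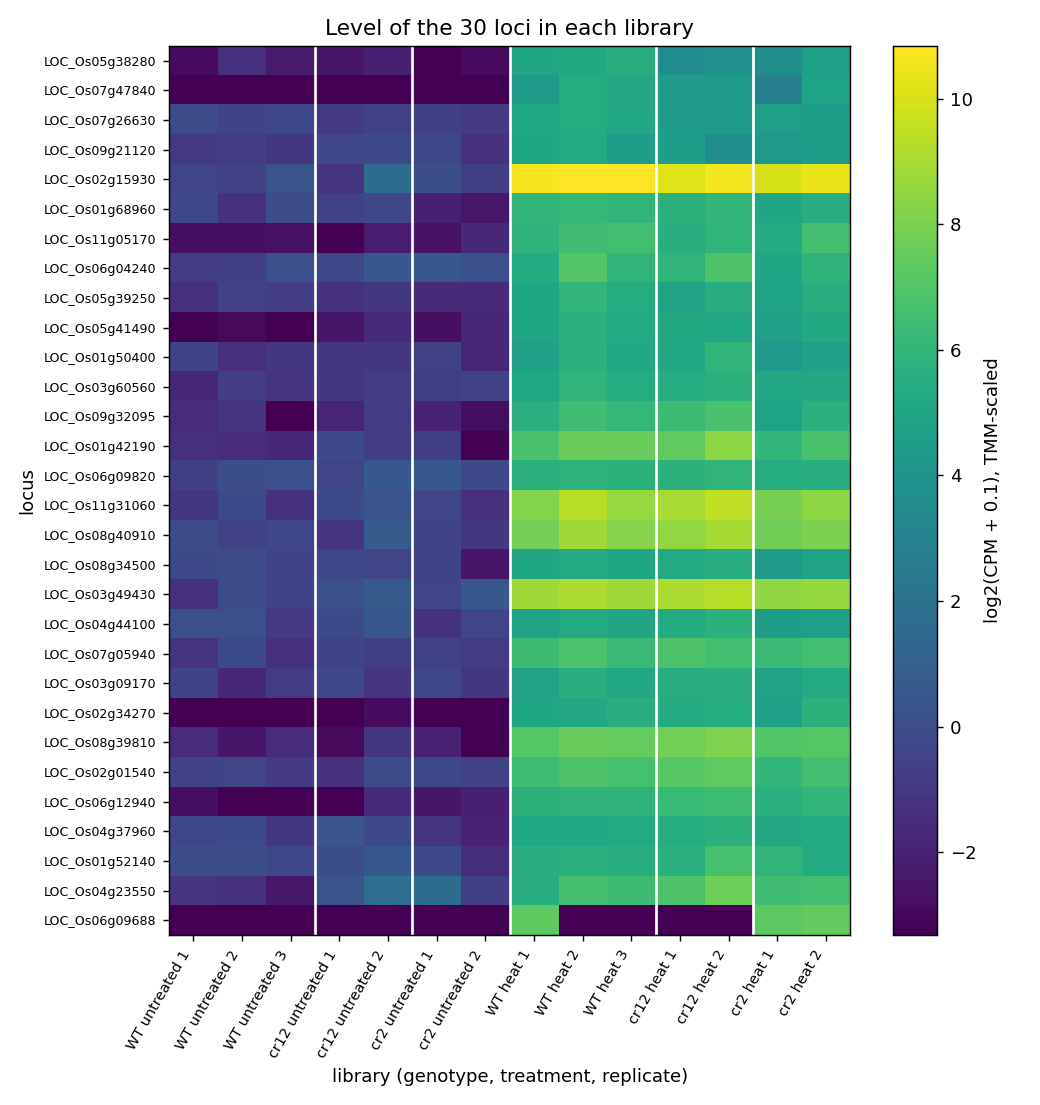
Level of each of the 30 loci (rows) in each of the 14 libraries (columns) as log2 of CPM + 0.1 on TMM-scaled library sizes, with white lines between the groups. Every row but the last, LOC_Os06g09688, is dark in all 7 untreated libraries and bright in all 7 heat-treated ones.

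The values that chose the loci are given first, as a description without a test. From here on, levels are CPM on library sizes scaled by TMM (trimmed mean of M-values, which sets the libraries to a common scale), unless column totals are named. Untreated WT held LOC_Os02g15930 at 0.667, 0.565 and 1.191 CPM, and heat-treated WT at 1610, 1790 and 1830 CPM. LOC_Os03g49430 stood at 0.308, 0.847 and 0.629 CPM without heat and at 455, 555 and 454 CPM with it. LOC_Os11g31060 stood at 0.4, 0.807 and 0.31 CPM without heat and at 298, 640 and 401 CPM with it. The heat-treated replicates of the first 2 lie close together, and those of LOC_Os11g31060 spread over a factor of 2.14.

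For 25 of the 30 loci enough untreated counts were present in WT to form a ratio, which ran from 43.8-fold (LOC_Os04g44100) to 2160-fold (LOC_Os02g15930). At 3 of 30 loci there was no count in untreated WT, namely LOC_Os02g34270, LOC_Os07g47840 and LOC_Os06g09688. Set against a floor of 3 fragments (12 counts) over the group, LOC_Os02g34270 was at least 978-fold and LOC_Os07g47840 at least 854-fold higher in heat-treated WT. Close to the heat threshold, on column totals, LOC_Os09g21120 averaged 30.19 CPM, LOC_Os07g47840 averaged 32.05 CPM and LOC_Os04g44100 averaged 32.75 CPM. Just outside it were LOC_Os11g32890 at 25.61 CPM, LOC_Os01g12460 at 24.03 CPM and LOC_Os06g12370 at 22.62 CPM. Close to the untreated threshold, LOC_Os01g52140 averaged 0.903 CPM, LOC_Os06g09820 averaged 0.877 CPM and LOC_Os02g15930 averaged 0.847 CPM. Just outside it were LOC_Os03g50960 at 1.085 CPM, LOC_Os03g53400 at 1.11 CPM and LOC_Os12g06550 at 1.165 CPM.

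LOC_Os06g09688 differs from the rest in kind. It was listed at 160 CPM in replicate 1 of heat-treated WT and at 0 in replicates 2 and 3. In heat-treated cr2 it was listed at 155 and 175 CPM, in heat-treated cr12 at 0 in both replicates, and in all 7 untreated libraries at 0. Its values are all or nothing even between replicates of a group, and without replicate 1 of heat-treated WT it would not have met the rule. In all, 5 of 28823 tested loci were at 0 in some heat-treated libraries and over 50 CPM in others. Whether reads of this locus were counted elsewhere in the other libraries was not tested, and no fold is given for it.

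The first tested question was whether the same treatment raises these loci in the htg3 lines. With edgeR's quasi-likelihood test and a Benjamini-Hochberg adjusted p under 0.05, 29 of 30 rose in the 2 lines together, against 27.6% of all 28823 tested loci. They also rose in each line alone, 29 of 30 in cr12 (22.2% of all loci) and 29 of 30 in cr2 (20.5% of all loci). The adjusted p of the 29 loci, from edgeR, lay between 1.9e-10 and 6.8e-06 for both lines together, and LOC_Os06g09688 was the locus not called in any of these comparisons. All 30 passed the filter on low counts, and 29 of them had over 100 counts in at least 2 heat-treated WT libraries, so their passing did not hang on the htg3 lines. The counts were the same without the replicates 2 of untreated cr12 and cr2.

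The rise in the htg3 lines was large. The median log2 change over the 30 loci was 7.49 against -0.03 over all tested loci. The 2 loci with no untreated count in the htg3 lines lie above this median both as fitted and at their lower bound. Setting them to that bound therefore could not move it from 7.49. Among 27 loci with enough untreated counts in the htg3 lines, the ratio of mean levels ran from 32.3-fold (LOC_Os09g21120) to 1400-fold (LOC_Os08g39810). LOC_Os08g39810 stood at 0.03 and 0.364 CPM in untreated cr12 and at 0.15 and 0 CPM in untreated cr2. After heat it stood at 223 and 272 CPM in cr12 and at 128 and 139 CPM in cr2 (log2 change 10.50 ± 0.52 SE, adjusted p = 9.4e-09). All 4 heat-treated libraries lie far above all 4 untreated ones. The heat-treated htg3 libraries lay above the untreated ones without overlap, by whatever amount, at 29 of 30 loci and at 23.6% of all tested loci.

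LOC_Os03g49430 went from 0.978 and 1.535 CPM to 555 and 648 CPM in cr12 and from 0.672 and 1.335 CPM to 352 and 383 CPM in cr2 (log2 change 8.71 ± 0.32, adjusted p = 9.3e-10). LOC_Os11g31060 went from 0.806 and 1.142 CPM to 505 and 719 CPM in cr12 and from 0.692 and 0.269 CPM to 245 and 345 CPM in cr2 (9.27 ± 0.43, adjusted p = 5.5e-09). LOC_Os08g40910 went from 0.343 and 1.663 CPM to 378 and 482 CPM in cr12 and from 0.622 and 0.388 CPM to 215 and 260 CPM in cr2 (8.80 ± 0.46, adjusted p = 1.3e-08). In each of these loci both heat-treated cr12 libraries lie above both heat-treated cr2 libraries. LOC_Os07g05940 went from 0.625 and 0.512 CPM to 118 and 94.9 CPM in cr12 and from 0.562 and 0.441 CPM to 79.6 and 94.2 CPM in cr2 (7.49 ± 0.29, adjusted p = 1.2e-09), where the lines stand close together.

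Another 7 loci rose by amounts from 5.56 ± 0.30 (LOC_Os04g44100, adjusted p = 2e-08) to 7.98 ± 0.38 (LOC_Os05g41490, adjusted p = 6e-09) on the log2 scale. LOC_Os05g41490 stood at 0.081 and 0.236 CPM in untreated cr12 and at 0.05 and 0.194 CPM in untreated cr2, and after heat at 39.3 and 36.1 CPM in cr12 and at 27.2 and 38.6 CPM in cr2. LOC_Os04g44100 stood at 0.817 and 1.329 CPM in untreated cr12 and at 0.321 and 0.668 CPM in untreated cr2, and after heat at 41.4 and 53.8 CPM in cr12 and at 24.1 and 25.7 CPM in cr2. The lines overlap after heat at the first of these loci and stand apart at the second. Between them lie LOC_Os08g34500 (6.04 ± 0.38), LOC_Os03g09170 (6.20 ± 0.34), LOC_Os03g60560 (6.39 ± 0.25), LOC_Os01g50400 (6.44 ± 0.40) and LOC_Os05g39250 (7.10 ± 0.31).

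The silence of some loci without heat was complete or nearly so at this depth. LOC_Os07g47840 had no count in any of the 7 untreated libraries, and after heat it stood at 23.0 and 21.9 CPM in cr12 and at 7.17 and 29.3 CPM in cr2, at least 666-fold higher over both lines (adjusted p = 6.8e-06). LOC_Os02g34270 had no count in 6 of the 7 and 0.039 CPM in replicate 2 of untreated cr12, which is 4 counts or about 1 fragment. After heat it stood at 41.5 and 43.8 CPM in cr12 and at 27.4 and 53.7 CPM in cr2 (adjusted p = 4.6e-08). The replicates of cr2 differ more than those of cr12 in both loci.

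The thresholds were then put to the htg3 libraries by themselves. On column totals and with the same removed loci, 25 loci had a mean under 1 CPM in the 4 untreated and of at least 30 CPM in the 4 heat-treated htg3 libraries. Of the 30 loci chosen in WT, 21 were among them, which is 70% of the 30 and 84% of the 25. The 9 others missed a threshold by level: 5 of them stood at or above 1 CPM without heat, and 4 stayed under 30 CPM with heat. The first kind were LOC_Os04g23550 (2.17 CPM without heat), LOC_Os02g15930 (1.35), LOC_Os03g49430 (1.18), LOC_Os06g04240 (1.17) and LOC_Os06g09820 (1.12). The second kind were LOC_Os07g26630 (22.2 CPM with heat), LOC_Os09g21120 (19.8), LOC_Os07g47840 (19.6) and LOC_Os05g38280 (15.9).

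Without heat the loci were low in both lines but not equally so. On column totals, 27 of 30 had a mean under 1 CPM in cr2 and 20 of 30 in cr12. The higher values of cr12 sit in replicate 2, where 23 of 30 loci were above replicate 1, against 48.8% of all tested loci. In cr2, 8 of 30 were higher in replicate 2 than in replicate 1, against 48% of all tested loci. The locus with the highest untreated mean was LOC_Os04g23550, at 1.21 and 3.258 CPM in cr12 and at 3.089 and 0.517 CPM in cr2, against 0.359, 0.303 and 0.087 CPM in WT. Every untreated htg3 library lies above every untreated WT library at this locus, by little in replicate 2 of cr2. The locus was singled out for its htg3 level among loci chosen for low WT values, so this order is a description only.

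Of the 30 loci, 2 differed between the lines without heat, against 3.8% of all tested loci, and both were higher in cr12. LOC_Os01g68960 stood at 0.595 and 0.718 CPM in cr12 against 0.14 and 0.086 CPM in cr2 (log2 difference 2.51 ± 0.47, adjusted p = 0.02 with edgeR). LOC_Os04g37960 stood at 1.21 and 0.758 CPM in cr12 against 0.341 and 0.162 CPM in cr2 (1.95 ± 0.38, adjusted p = 0.021 with edgeR). The lines do not overlap at either locus, yet all of these levels are at or under 1.21 CPM. Neither call held without the replicates 2 of both untreated lines (log2 difference 2.08, adjusted p = 0.35, and 1.83, adjusted p = 0.15, with edgeR). The call of LOC_Os01g68960 was lost without replicate 1 of untreated cr12 (adjusted p = 0.062), replicate 2 of untreated cr12 (0.078) or replicate 2 of untreated cr2 (0.21), with log2 differences of 2.62, 2.35 and 2.17. The call of LOC_Os04g37960 was lost without replicate 1 of untreated cr12 (0.11) or replicate 2 of untreated cr2 (0.21), with log2 differences of 1.56 and 1.48. Since the lines do not overlap at either locus, leaving libraries out could not reverse the direction of these differences.

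**Figure D2:**
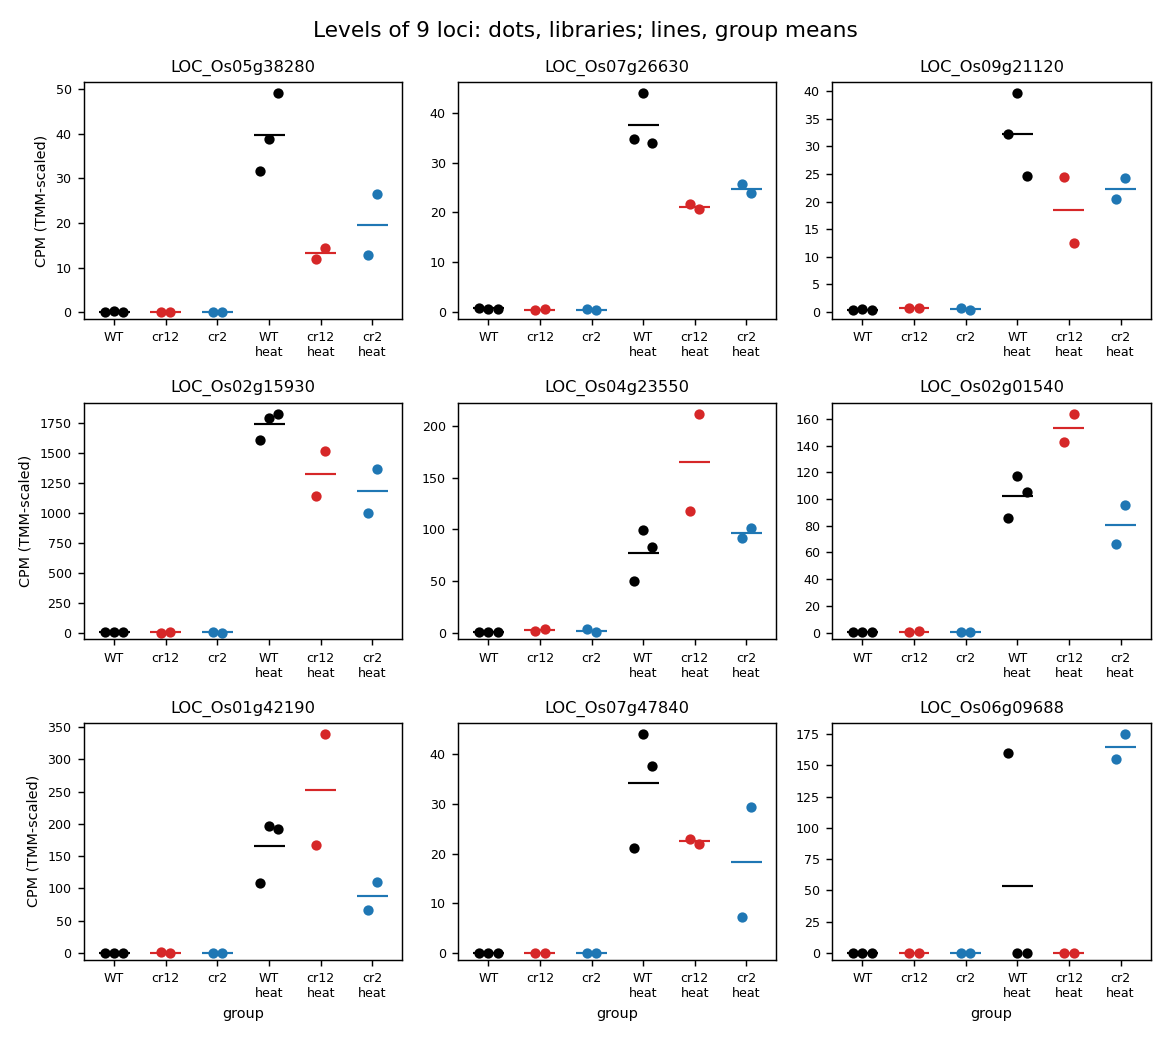
CPM on TMM-scaled library sizes (vertical axes, linear from 0) of 9 loci in the 6 groups, with a dot for each library and a line at the group mean, WT in black, cr12 in red and cr2 in blue. In the upper row and for LOC_Os02g15930 the heat-treated htg3 libraries all lie under the heat-treated WT libraries, and LOC_Os06g09688 is either at 0 or at 155 CPM and more after heat.

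After heat most of the loci stood higher in cr12 than in cr2, though none passed the test by itself. In cr12 against cr2, 24 of 30 loci had a fitted log2 difference above 0 and 6 below, with a median of 0.48 against 0 over all tested loci. Both cr12 libraries lay above both cr2 libraries at 19 of 30 loci, against 23.9% of all tested loci, and both cr2 libraries above both cr12 libraries at 2 of 30, against 24.6%. With edgeR 0 of 30 were called, against 5.62% of all tested loci. In edgeR 8 had an unadjusted p under 0.05, and DESeq2 called 1. The shares of all tested loci for these last 2 counts are not given here, so nothing is drawn from them. The count of 19 was 20 to 25 when 1 heat-treated library of either line was left out, where 35.2% to 37.1% of all tested loci were so placed. On the same scaling such a count cannot fall when a library is left out, so these counts do not show that it is stable.

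LOC_Os02g01540 is the locus that DESeq2 called, at 143 and 164 CPM in cr12 against 66.1 and 95.8 CPM in cr2 (log2 difference 0.92, adjusted p = 0.11 with edgeR). LOC_Os01g42190 stood at 167 and 339 CPM in cr12 against 66.6 and 110 CPM in cr2, and here the cr12 replicates lie far from each other (log2 difference of the lines 1.52 ± 0.56, adjusted p = 0.16 with edgeR). Single libraries differed too. Replicate 1 of heat-treated cr2 was the lowest of the 7 heat-treated libraries at 23 of 30 loci, against 10.9% of all tested loci. Replicate 2 of heat-treated cr12 was the highest at 15 of 30 (16.9% of all tested loci), while replicate 1 was so at 1 of 30 (10.9%). These ranks are a description, since they include the WT libraries that chose the loci. The part of these single libraries in the difference between the lines was not tested.

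Known heat shock genes were set beside the 30 loci. Of 25 heat shock factor loci 18 rose and 3 fell with heat in the htg3 lines (median log2 change 2.16), and of 31 chaperone loci 29 rose and 0 fell (8.16), against 27.6% of all tested loci that rose. Their median log2 difference of cr12 against cr2 after heat was 0.49 for the factors and 0.40 for the chaperones, beside 0.48 for the 30 loci. For the 9 removed loci that met both thresholds it was 0.05, and all 9 rose with heat. None of the 30 loci is in these lists (0 of 30), which were written from general knowledge of rice heat shock genes. Most of the loci removed by ID are in these lists, so this 0 follows in part from the removal.

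Whether the lines respond to heat to a different extent was tested by the difference of their responses. Of the 30 loci, 0 were called by edgeR and 2 by DESeq2, and 3 had an unadjusted p under 0.05 in edgeR. Over all tested loci edgeR called 1 (0.00347%). The shares of all tested loci for the counts of 2 and 3 are not given here, so nothing is drawn from them. The 2 loci that DESeq2 called are LOC_Os01g68960 (log2 difference -1.90 ± 0.56, adjusted p = 0.24 with edgeR) and LOC_Os04g37960 (-1.64 ± 0.47, adjusted p = 0.23 with edgeR). They are the loci that are lower in untreated cr2, and a missing call does not show that the lines respond alike.

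The htg3 lines were then set beside WT after heat. The WT libraries chose the loci, and a choice for high WT values can by itself place other samples lower, so these differences are a description and no p-value is given. The median log2 difference of the lines together against WT was -0.11 over the 30 loci and -0.02 over all tested loci. By line the median was 0.23 in cr12, with 20 of 30 loci above 0, and -0.40 in cr2, with 25 of 30 below 0. Over all tested loci both medians were 0, with 48.7% above 0 in cr12 and 49.4% in cr2. The replicates of a line differed as well, with medians of 0.06 and 0.37 in cr12 and -0.57 and -0.26 in cr2. Both cr12 libraries lay above the 3 WT libraries at 7 of 30 loci (18% of all tested loci) and below them at 4 of 30 (19.7%). Both cr2 libraries lay below the WT libraries at 9 of 30 (19.4%) and above them at 0 of 30 (20.4%). The count of 7 was 11 on column totals (20% of all tested loci), 15 without replicate 1 of heat-treated cr12 (30.5%) and 16 without replicate 2 of heat-treated WT (24.6%). The count of 9 was 20 without replicate 1 of heat-treated WT (24.5% of all tested loci) and 26 without replicate 2 of heat-treated cr2 (27.6%). On the same scaling, leaving out a library can only keep or raise such counts.

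**Figure D3:**
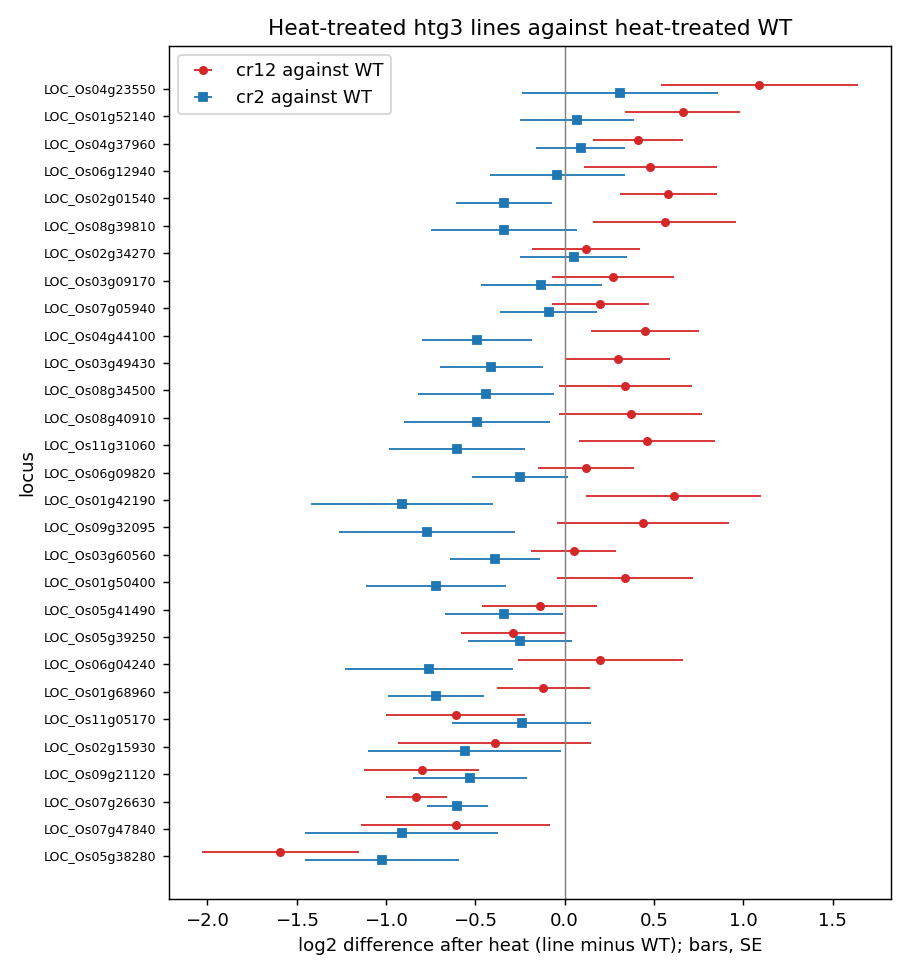
Fitted log2 difference of heat-treated cr12 (red circles) and heat-treated cr2 (blue squares) against heat-treated WT (horizontal axis; bars are approximate SE) for 29 of the 30 loci, ordered by the mean of both lines. The cr12 values have a median near 0.23 and the cr2 values near -0.40, and at the bottom both lines are below 0; LOC_Os06g09688 is left out because it is at 0 in some libraries.

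At 4 of 30 loci all 4 heat-treated htg3 libraries lay below all 3 heat-treated WT libraries, against 8.76% of all tested loci, and at 0 of 30 all lay above, against 8.74%. LOC_Os05g38280 stood at 31.6, 38.8 and 49.1 CPM in WT, at 11.9 and 14.5 CPM in cr12 and at 12.8 and 26.4 CPM in cr2 (log2 difference -1.31 ± 0.34). LOC_Os07g26630 stood at 34.8, 43.9 and 33.9 CPM in WT, at 21.6 and 20.6 CPM in cr12 and at 25.6 and 23.9 CPM in cr2 (-0.72 ± 0.14). The htg3 values of LOC_Os07g26630 lie within a narrow band, well apart from WT. LOC_Os02g15930 stood at 1610, 1790 and 1830 CPM in WT, at 1140 and 1520 CPM in cr12 and at 997 and 1370 CPM in cr2 (-0.47 ± 0.44). LOC_Os09g21120 stood at 32.3, 39.6 and 24.7 CPM in WT, at 24.5 and 12.5 CPM in cr12 and at 20.4 and 24.3 CPM in cr2 (-0.66 ± 0.26). At LOC_Os09g21120 the groups nearly touch, and on column totals or with the size factors of DESeq2 (RLE) they overlap. That leaves 3 of 30 loci, and the share of all tested loci under those settings is not given here.

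At the other end, the fitted difference was highest for LOC_Os04g23550, at 49.7, 99.6 and 83.0 CPM in WT, at 118 and 212 CPM in cr12 and at 91.5 and 101 CPM in cr2 (0.70 ± 0.47). The cr12 values are above WT and the cr2 values overlap it. LOC_Os01g52140 (0.37 ± 0.27), LOC_Os04g37960 (0.25 ± 0.21), LOC_Os06g12940 (0.22 ± 0.32), LOC_Os02g01540 (0.12 ± 0.23) and LOC_Os08g39810 (0.11 ± 0.34) follow. LOC_Os06g09688 is left aside, since it is at 0 in some libraries of WT and of the lines. Their differences are no more than about their own SE, apart from LOC_Os01g52140 and LOC_Os04g37960, which exceed it slightly. LOC_Os07g47840 (-0.76 ± 0.44) overlapped WT, since it spread from 21.1 to 44.0 CPM there.

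The loci also differed in how much they varied between heat-treated libraries. The 3 heat-treated WT libraries of LOC_Os06g12940 stood at 55.3, 58.9 and 60.1 CPM, and those of LOC_Os06g09820 at 50.4, 56.5 and 54.2 CPM. Those of LOC_Os06g04240 stood at 41.8, 131 and 61.6 CPM, and those of LOC_Os09g32095 at 50.8, 91.3 and 69.1 CPM. The highest WT library was 1.09 times the lowest for LOC_Os06g12940 and 3.12 times for LOC_Os06g04240. Over all 7 heat-treated libraries the same ratio ran up to 6.13 for LOC_Os07g47840 and 5.10 for LOC_Os01g42190. No ratio can be formed for LOC_Os06g09688, which had no count in some heat-treated libraries. Replicate 2 of heat-treated WT is the highest of the WT replicates at LOC_Os06g04240 and LOC_Os09g32095, whereas LOC_Os11g05170 peaked in replicate 3, at 59.9, 90.5 and 95.3 CPM.

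Position was not used to choose the loci. By their IDs, in which the first number is the chromosome and the order follows the chromosome, the 30 loci lie on 10 of the 12 chromosomes, with 2 to 4 on each of them and 0 on chromosomes 10 and 12. No member stands directly beside another or beside a listed heat shock locus (0 of 60 neighbours). Some of the loci removed by ID have close IDs, and some lie on chromosome 10. The lack of adjoining members and of members on chromosome 10 may follow in part from that removal. Of the 60 loci directly before and after the 30 loci, 25 rose with heat in the htg3 lines (41.7%), 7 fell and 16 were not tested. Of 57560 loci beside any tested locus, 11297 rose (19.6%) and 11564 fell. Loci without a count in any library made up 13.3% of the 60 and 20.9% of the 57560. The 25 were 25 as well without the replicates 2 of untreated cr12 and cr2, where 17.5% of such loci rose. Overlapping or adjoining genes can share reads, and no source used here gives the strand of the counting, so the part of shared reads was not tested.

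**Figure D4:**
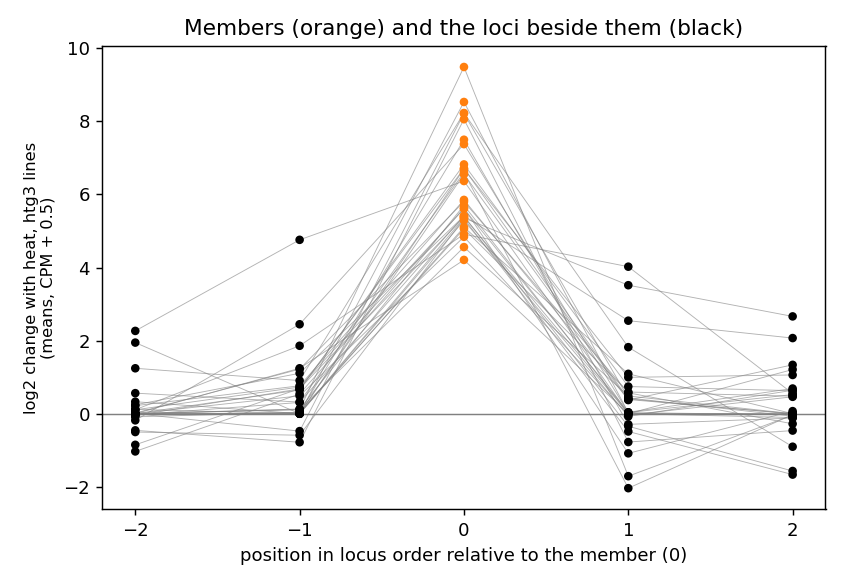
Log2 change with heat in the htg3 lines, from mean CPM + 0.5 (vertical axis), of the 30 loci (orange, position 0) and of the 2 loci on each side of them in ID order (black), joined by grey lines. The loci at position 0 were chosen for a rise in WT, and the htg3 libraries shown here took no part in that choice. The added 0.5 CPM pulls loci with few counts towards 0. Of the 60 directly adjoining loci, 25 rose in the test. On this axis 46 of the 60 changed less than 2-fold.

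Some of the loci stood beside loci that were silent or that fell. Beside LOC_Os11g31060, LOC_Os11g31050 had no count at all and LOC_Os11g31070 averaged 0.0101 CPM in the heat-treated htg3 lines. Beside LOC_Os08g40910 both neighbours fell, LOC_Os08g40900 by a log2 change of -0.79 ± 0.08 (adjusted p = 3.7e-06) and LOC_Os08g40919 by -0.81 ± 0.11 (adjusted p = 6.7e-05). LOC_Os02g15950, the next locus after LOC_Os02g15930, went from 16.5 to 4.68 CPM (-1.84 ± 0.17, adjusted p = 1.5e-06).

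The opposite was seen at a few places. The pair of loci before LOC_Os02g34270 were silent without heat as well: LOC_Os02g34260 averaged 0 CPM in the untreated and 13 CPM in the heat-treated htg3 lines (adjusted p = 2.9e-07), and LOC_Os02g34250 averaged 0 and 1.9 CPM (adjusted p = 1.6e-05). LOC_Os05g38280 lies between LOC_Os05g38270, which went from 61.7 to 225 CPM (log2 change 1.90 ± 0.10, adjusted p = 1.6e-08), and LOC_Os05g38290, which went from 4.56 to 81.8 CPM (4.30 ± 0.17, adjusted p = 1.3e-09). LOC_Os01g50410, after LOC_Os01g50400, went from 3.18 to 41.6 CPM (3.63 ± 0.29, adjusted p = 4.8e-07). LOC_Os06g09679, the locus before LOC_Os06g09688, went from 75.1 to 412 CPM (2.48 ± 0.08, adjusted p = 2.6e-10) and showed none of the on and off pattern of its neighbour. After heat it stood at 388 to 434 CPM in the 4 htg3 libraries.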

How the data were processed

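The authors deposited 1 table of estimated counts per locus for 55986 loci in 14 libraries. The column headers name StringTie, and the submitters' processing notes list StringTie 1.3.3b, HISAT2 2.1.0, DESeq2 and fastp 0.20.1 without roles. The build, annotation and strand setting are not given in the sources used here. The values are whole numbers, so nothing was rounded. Low values gather at multiples of 4 (9196 values of 4, 3918 of 3, 5346 of 5), taken as 4 counts per fragment. Floors cover counting error only.

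Counts kept by filterByExpr and scaled by TMM were fitted in R 4.3.3 by the quasi-likelihood method of edgeR 4.0.16, with 6 group means over 14 libraries and Benjamini-Hochberg adjustment over all 28823 tested loci; the fit was tested on simulated data. The approximate SE is the absolute log2 change over the square root of F. DESeq2 1.42.0 was an alternative.

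The members, lists and tests were chosen with earlier results of these data known. Loci named are those with the highest WT level after heat, the extremes against WT, those called or not called, those near a threshold, and neighbours picked after their values were seen. TMM factors matter: column totals moved the median heat change of all loci in the htg3 lines by -0.11 (log2) and in cr12 by -0.17. Replicate numbers follow sample order and pair nothing.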

Additional observations from a re-analysis of the deposited data

How the results depend on the processing

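The counts of loci that rose with heat were 29 under every alternative run for both lines together and for cr12, and 29 or 30 for cr2. These alternatives were DESeq2, RLE scaling, no filter, counts divided by 4, only the htg3 libraries, each htg3 library left out, and both replicates 2 of the untreated lines left out. Calls of cr12 against cr2 after heat went from 0 to 1 with DESeq2, 3 with counts divided by 4, 1 with only the htg3 libraries and 3 without the replicates 2 of the untreated lines (0 to 2 leaving out 1 library). Without heat they went from 2 to 4 with DESeq2 and 0 without those replicates (0 to 5 leaving out 1 library). The difference of the heat responses had 2 calls with DESeq2. The shares of all tested loci under these alternatives are not given here, so these counts cannot be set against a background. The cause of the shifts was not tested.

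Against WT after heat, the median log2 difference was -0.109, and leaving out 1 library gave -0.304 to 0.057. Loci with all htg3 libraries below WT numbered 3 to 6, and above WT 0 to 3. On the same scaling, leaving out a library can only keep or raise these counts. The shares of all tested loci were 8.76% below and 8.74% above in the main setting. They are not given here for the other settings. The rule gave 16 loci at 50 CPM, 16 at 0.5 CPM and 50 at 2 CPM in place of its thresholds, and 28 to 31 without 1 WT library. In the htg3 libraries it gave 21 to 28 loci, 19 to 23 of them among the 30. Overlap counts of single lines and counts of neighbours under other settings were added after the values were seen. Levels under about 1 CPM rest on few fragments, which limits every statement on untreated plants.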
